A study of Mus musculus with 15 samples.

Results

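Messenger RNA of mouse CD4 T cells sorted as Tfh (T follicular helper) cells was compared with that of cells sorted as Th1 cells, over 5 Tfh and 5 Th1 libraries of the 15 in the series. The other 5 libraries, from a Th17 condition, enter as a further level beside some of the genes named. Of the 27179 genes in the deposited count table, 12591 passed a filter on low counts and were tested. The description covers genes outside the usual lineage markers, which are surface molecules, receptors, signalling proteins, enzymes, transporters, secreted factors and transcription factors.

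All 3 conditions share the genotype B6.Cg-Ifngtm3.1Lky-Il17atm1.1Lky, so each of them carries altered Ifng and Il17a alleles. Naive CD4 T cells grew for 3.5 days in cRPMI medium on plate-bound antibodies against CD3 and CD28 before a flow sorter collected them in Trizol LS. Per the series' design text, Th1 cells were taken as positive for interferon gamma and Tfh cells as positive for CXCR5 and negative for IL-17A. Neither the cytokines that each culture received, nor how Th17 cells were gated, nor the age of the mice is given in the sources used here. Library preparation started from 100 ng of RNA and used a Lexogen SENSE kit. No label tells whether the 5 replicates of a condition came from separate mice or cultures, so every p-value measures the spread between these libraries, which may be technical.

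As background, naive CD4 T cells that meet antigen take up different effector fates according to the cytokines around them. Th1 cells are directed by the factor T-bet, make interferon gamma and act against intracellular microbes, while Tfh cells enter B cell follicles through CXCR5 and help B cells, with c-Maf among the factors of that programme. The fates also differ in the surface receptors that place a cell in a tissue, in the enzymes that feed its growth and in the factors that read its signals, and these are the classes followed here.

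Levels are given in CPM, the counts of a gene per M (mega) counts of its library after correction of library size by TMM factors. They compare libraries for 1 gene and not genes with each other, since they are not corrected for transcript length. The 4 genes that check the labels followed them. Cxcr5 and Ifng were sorted on, so their levels are no finding: Cxcr5 was at 169 ± 14.2 CPM in Tfh and 10.3 ± 2.13 in Th1 libraries (mean ± SD, n = 5 in each condition here and below), and Ifng at 0.341 ± 0.295 against 839.9 ± 136. Cxcr5 overlaps Bcl9l, which had 2882 counts against its 10279, so some of its reads may belong there. Maf, the gene of c-Maf, was at 1630.0 ± 350.0 CPM in Tfh and 10.7 ± 2.75 in Th1, and Tbx21, the gene of T-bet, at 3.77 ± 0.834 and 181 ± 58.

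Total counts ran from 4.87 M to 12.2 M in the Tfh and from 7.34 M to 25.2 M in the Th1 libraries, so that 3 counts correspond to between 0.127 and 0.58 CPM. Across genes, the median correlation of log2 CPM was 0.957 between Tfh libraries, 0.962 between Th1 libraries and 0.793 across the conditions. Tfh replicate 1, the shallowest library, stood apart from the other Tfh libraries, at 86.5 on the second principal component against -34.9 to -16.8, and a value that rests on it is given without it.

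Markers of CD4 T cells and of other cell types were also examined. The 7 CD4 T cell genes summed to 4410 to 5690 CPM in the Tfh and 3250 to 3980 CPM in the Th1 libraries, and 5 of them were called higher and 1 lower in Tfh. Among them Cd3e was at 1290 CPM in Tfh and 558 CPM in Th1 (edgeR adjusted p = 2.59e-05), Thy1 at 225 and 602 CPM (edgeR adjusted p = 4.29e-06), and Cd4 itself, not called, at 551 and 592 CPM (edgeR adjusted p = 0.549). The 6 B cell markers summed to 58.1 to 114 CPM in Tfh and 75.1 to 130 CPM in Th1, nearly all of it from Ighm, which was at 88.4 and 97.8 CPM and was not called (edgeR adjusted p = 0.6). Cd79a had 54 counts in Tfh and 19 in Th1, and Ms4a1 and Pax5 had none in Tfh. The 6 NK cell markers summed to 13.8 to 35.6 CPM in Tfh and 10.3 to 19.6 CPM in Th1. Of these Klrd1 was higher in Tfh, at 18.3 against 9.13 CPM (edgeR adjusted p = 0.04), and Eomes lower, at 0.264 against 4.5 CPM (edgeR adjusted p = 0.00123). Klre1 was not called (edgeR adjusted p = 0.462), Klrb1c had 21 counts in Tfh and 0 in Th1, and Ncr1 and Klra8 had no count in either condition. Cd8a had 0 counts in Tfh but was at 1.12 to 10.4 CPM in Th1 libraries (edgeR adjusted p = 8.4e-05), while Cd8b1 was not called (edgeR adjusted p = 0.083). All 3 regulatory T cell markers differed. Foxp3 was higher in Tfh, at 13 against 0.482 CPM (edgeR adjusted p = 1.43e-05), while Ikzf2 was lower, at 3.75 against 12.5 CPM (edgeR adjusted p = 0.0104), and so was Il2ra, with a log2 fold change of -2.04 (edgeR adjusted p = 6.36e-12). Of the gamma-delta T cell list only Trdc could be matched, and it was at 15 CPM in Tfh and 31.9 CPM in Th1 (edgeR adjusted p = 0.00287). None of the 9 myeloid and dendritic or the 4 erythroid markers passed the filter. The part of other cell types in the differences below was not tested. In bulk libraries fewer cells of a type and less RNA per cell cannot be told apart.

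Close to 1 gene in 2 differed between the conditions. edgeR's quasi-likelihood test called 6206 genes, 49.3% of those tested, at a Benjamini-Hochberg adjusted p under 0.05, of which 3037 were higher (24.1%) and 3169 lower (25.2%) in Tfh. Without Tfh replicate 1 the counts were 3052 and 3246. Differences of at least 4-fold were found for 666 higher and 930 lower genes, and differences of at least 64-fold for 114 and 186. For 4313 genes, 34.3% of those tested, no Tfh library overlapped any Th1 library. The median log2 fold change over all genes tested was -0.01. These shares are the background against which every count below is to be read.

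**Figure D1:**
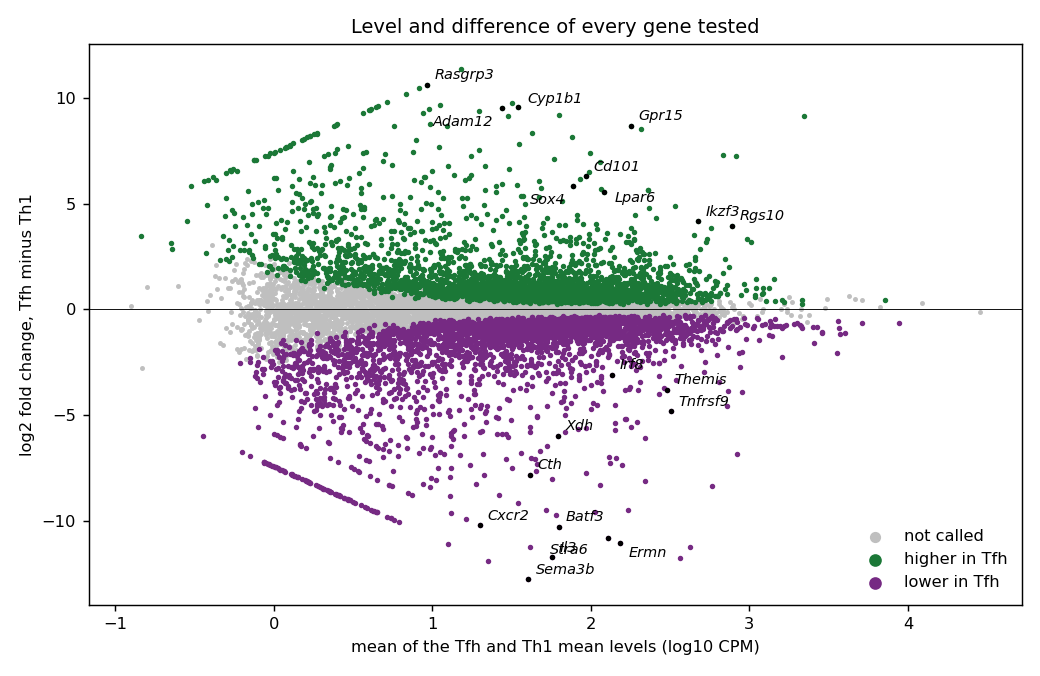
Each point is 1 of the 12591 genes tested, with the mean of its Tfh and Th1 levels (log10 CPM, horizontal) against its log2 fold change (Tfh minus Th1, vertical). The 3037 genes higher in Tfh are green, the 3169 lower ones purple and the rest grey, and the slanted lines of points at low levels are genes with no count in 1 of the conditions.

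Genes were sorted into 27 families by their symbols, which hold 2199 of the genes tested, and up to 2 genes a direction are named from each. Those are the ones with the largest difference among genes that passed the test, reached 10 CPM in the higher condition, showed no overlap between the libraries and were not among 63 usual lineage genes. Together with the 10 highest and 10 lowest differences over all genes, 118 genes are named in this way. Being called and not overlapping are thus conditions of being named and not findings, and the size of the differences reflects the choice of the largest. Their edgeR adjusted p-values ran from 4.99e-15 to 0.00632. Fold differences are Tfh over Th1 from that fit, with the log2 fold change and its standard error in parentheses. Where a condition had no count the fold is a lower bound against 3 counts over the condition, and with 1 to 3 counts the ratio of the higher to the lower condition follows, with an interval by the exact Clopper-Pearson method. Both cover counting error only, and such few counts came from 1 or 2 libraries, without which the condition had none. Family counts include the usual lineage genes and those sorted on.

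The most extreme genes outside the lineage list had almost no reads in the other condition. Cysrt1, which encodes a small cysteine-rich protein (gene ID 67859; chromosome 2, 25238819 to 25239897), was at 27.3, 15.8, 31.5, 39.8 and 36.9 CPM in the 5 Tfh libraries and 0 in each of the 5 Th1 libraries, and so was at least 671-fold higher in Tfh. Ntng1, the gene of the membrane-anchored netrin G1 (gene ID 80883; chromosome 3, 109780050 to 110149972), was at 15.8, 9.89, 16.9, 15.6 and 23.4 CPM in Tfh and 0 in each of the 5 Th1 libraries, and was at least 358-fold higher. Gja5, which encodes the gap junction protein connexin 40, was at 13.7 ± 2.86 CPM in Tfh, without a count in Th1, and was at least 277-fold higher. Daw1, known for its part in assembling the dynein of cilia, was at 63.6 ± 14.6 CPM in Tfh, and 4 counts in all in Th1 left it 858-fold higher (9.74 ± 0.37). Gli3, a zinc-finger factor of the hedgehog pathway, was at 22.3 ± 6.11 CPM in Tfh and had 1 count in Th1, in replicate 5, which gives a ratio of 1407 (exact 95% interval 252 to 55610.0). Every one of these genes was present in all 5 Tfh libraries.

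On the Th1 side, Ermn, which encodes the cytoskeletal protein ermin known from myelin (gene ID 77767; chromosome 2, 58045115 to 58052864), was at 512, 329.5, 160.4, 185 and 331 CPM in the Th1 libraries and at 0, 0.141, 0, 0.199 and 0.296 CPM in the Tfh libraries. Replicate 1 was the highest and replicate 3 the lowest of the Th1 libraries, and even the lowest was far above every Tfh value, and Ermn was 2077-fold lower (-11.02 ± 0.59; -11.62 without Tfh replicate 5) in Tfh. Stra6, the cell-surface receptor for retinol-binding protein (gene ID 20897; chromosome 9, 58063793 to 58154004), was at 149, 175, 376, 374 and 206 CPM in Th1 and at 0.193, 0, 0, 0.299 and 0.198 CPM in Tfh, and was 1751-fold lower (-10.77 ± 0.52). Mt3, a metallothionein gene, was at 44.5 ± 19.8 CPM in Th1 without a count in Tfh, and was at least 748-fold lower. Nos2, which encodes the inducible nitric oxide synthase, was at 13, 23.5, 35.7, 32.5 and 20.5 CPM in Th1 and 0 in each of the 5 Tfh libraries. Nos2 was at least 414-fold lower. Pmp22, a membrane protein gene known from peripheral nerve, was at 12.4 ± 4.15 CPM in Th1, without a count in Tfh, and at least 179.9-fold lower. Trim66, a chromatin-reading member of the tripartite motif family, was at 82.8 ± 25.1 CPM in Th1 and had 1 count in Tfh, in replicate 1, a ratio of 3969 (exact 95% interval 712 to 156800.0).

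Promoters are printed here for 6 of the named genes, which are extremes in either direction and Gpr15, a family member outside the 10 highest. Gpr15, like some of the extremes, is described further on with its family. RefSeq's promoter table on GRCm38.p6 gives the 250 bases before and 50 bases after the start site, printed 5′ to 3′ on the gene's strand. They show what sequence lies at genes that differ this far. Capitals mark matches, on either strand, to 6 motifs chosen after the expression values were seen, in which N is any base. They are GGTGTGA for the T-box half-site, TGCTGA for the MAF half-site and TGANTCA for the AP-1 site and looser forms of it. The others are TTCNNNGAA for the STAT site, TNGCGTG for the xenobiotic response element and TATAAA for the box of that name found before many start sites. The first 3 genes were higher and the last 3 lower in Tfh.
Gpr15: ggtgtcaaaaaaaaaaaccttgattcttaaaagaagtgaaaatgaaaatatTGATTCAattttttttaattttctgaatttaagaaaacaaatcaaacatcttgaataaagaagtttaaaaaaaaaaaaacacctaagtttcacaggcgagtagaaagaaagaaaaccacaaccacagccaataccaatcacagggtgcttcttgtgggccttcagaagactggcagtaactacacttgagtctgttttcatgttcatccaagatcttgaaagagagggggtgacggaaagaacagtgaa
Cysrt1: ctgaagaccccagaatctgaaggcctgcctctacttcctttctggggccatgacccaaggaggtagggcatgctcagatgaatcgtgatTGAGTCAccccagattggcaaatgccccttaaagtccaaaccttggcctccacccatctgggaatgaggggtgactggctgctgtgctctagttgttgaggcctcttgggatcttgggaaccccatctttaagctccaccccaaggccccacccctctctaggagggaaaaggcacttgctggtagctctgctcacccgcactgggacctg
Cyp1b1: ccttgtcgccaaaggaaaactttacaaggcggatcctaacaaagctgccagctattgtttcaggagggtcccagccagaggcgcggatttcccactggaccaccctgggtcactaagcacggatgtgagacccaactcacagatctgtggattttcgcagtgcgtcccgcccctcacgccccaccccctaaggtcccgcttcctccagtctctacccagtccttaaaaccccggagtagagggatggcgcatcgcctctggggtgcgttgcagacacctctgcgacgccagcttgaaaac
Batf3: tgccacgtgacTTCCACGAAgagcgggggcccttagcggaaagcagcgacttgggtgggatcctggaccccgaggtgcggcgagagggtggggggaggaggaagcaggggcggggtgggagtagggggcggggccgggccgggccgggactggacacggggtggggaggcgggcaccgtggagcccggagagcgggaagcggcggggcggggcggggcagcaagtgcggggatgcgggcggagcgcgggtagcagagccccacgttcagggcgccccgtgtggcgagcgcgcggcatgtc
Ermn: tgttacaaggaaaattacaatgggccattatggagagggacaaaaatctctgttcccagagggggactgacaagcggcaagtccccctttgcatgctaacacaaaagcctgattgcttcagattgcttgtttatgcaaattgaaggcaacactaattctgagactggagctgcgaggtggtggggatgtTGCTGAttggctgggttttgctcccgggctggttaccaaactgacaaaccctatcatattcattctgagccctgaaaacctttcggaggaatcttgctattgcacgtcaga
Il3: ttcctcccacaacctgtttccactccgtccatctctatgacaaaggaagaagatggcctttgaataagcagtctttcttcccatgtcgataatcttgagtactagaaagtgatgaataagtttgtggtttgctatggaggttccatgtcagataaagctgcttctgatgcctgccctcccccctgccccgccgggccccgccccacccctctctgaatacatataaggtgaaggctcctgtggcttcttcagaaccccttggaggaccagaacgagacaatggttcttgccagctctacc
The windows are chr16:58718823-58719122, minus strand for Gpr15, chr2:25239848-25240147, minus strand for Cysrt1, chr17:79715012-79715311, minus strand for Cyp1b1, chr1:191098164-191098463, plus strand for Batf3, chr2:58052815-58053114, minus strand for Ermn and chr11:54267230-54267529, minus strand for Il3. A match to TGANTCA starts 199 bases upstream of the start site of Gpr15 (TGATTCA) and 161 bases upstream of that of Cysrt1 (TGAGTCA). The classical AP-1 site has C or G in the middle, so only the Cysrt1 match has its letters. Batf3 holds a STAT match starting 239 bases upstream and Ermn a MAF half-site starting 61 bases upstream, and the windows of Cyp1b1 and Il3 hold none of the 6. Of the 32851 promoters in the table, 7.81% hold a match to TGANTCA, 8.3% a STAT match and 19.5% a MAF half-site. A T-box half-site is in 3.98%, a xenobiotic response element in 5.07% and a TATA box in 13.6%. The matches describe letters and no binding was measured.

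Surface molecules changed in both directions. In the family of CD antigens, 56 genes were tested, of which 24 were higher and 19 lower in Tfh and 13 did not pass (76.8% called, median log2 fold change 0.26). Cd101, which encodes an inhibitory immunoglobulin-type protein of the T cell surface (gene ID 630146; chromosome 3, 100992189 to 101029553), was at 224, 165, 153, 179.8 and 196 CPM in Tfh and 0.701, 3.38, 2.71, 2.12 and 2.38 CPM in Th1. The lowest Tfh library was far above the highest Th1 library, and Cd101 was 77.9-fold higher (6.28 ± 0.25). Cd86, the gene of a ligand for CD28 and CTLA-4 that is better known from antigen-presenting cells (gene ID 12524; chromosome 16, 36568956 to 36666158), was at 57.2, 105, 63.7, 51.8 and 56.7 CPM in Tfh and 3.64, 3.77, 2.84, 2.58 and 6.30 CPM in Th1. Cd86 was 17.5-fold higher (4.13 ± 0.33). Of such cells, the 9 myeloid and dendritic markers summed to 0.282 to 3.09 CPM in the Tfh and 0.425 to 1.57 CPM in the Th1 libraries, and the 6 B cell markers to 58.1 to 114 and 75.1 to 130 CPM, mainly Ighm. Their part in the Cd86 difference was not tested. Cd83, which encodes an immunoglobulin-type protein of activated cells (gene ID 12522; chromosome 13, 43785112 to 43803133), went the other way, at 0, 0.848, 1.23, 0.597 and 0.296 CPM in Tfh and 82.8, 85.6, 104, 90.04 and 80.3 CPM in Th1. Cd83 was 133-fold lower (-7.06 ± 0.47). Cd226, the gene of the activating receptor DNAM-1, was at 0, 0.282, 0.0817, 0 and 1.28 CPM in Tfh and 61.7, 37.5, 31.6, 30.3 and 46.1 CPM in Th1. Cd226 was 113-fold lower (-6.82 ± 0.55; -8.73 without Tfh replicate 5), with most of its Tfh counts in replicate 5.

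Integrins, the paired receptors for matrix and for other cells, numbered 15 tested, with 5 higher, 4 lower and 6 not passing (60% called, median 0.08). Itgae, which encodes the alpha E chain CD103 that binds E-cadherin on epithelia (gene ID 16407; chromosome 11, 73090505 to 73147449), was at 44.5, 30.2, 43.6, 40.2 and 53.5 CPM in Tfh and 1.68, 1.45, 2.88, 1.57 and 1.28 CPM in Th1. It was 23-fold higher (4.53 ± 0.26), but its span overlaps Haspin, which had 4984 counts against 2485 for Itgae, and whether the counting used strand is not given in the sources used here. Itga6, a chain of laminin receptors, was at 69.6 ± 17.4 CPM in Tfh and 21.6 ± 4.45 CPM in Th1. Itga6 was 3.23-fold higher (1.69 ± 0.19). Itga7, another laminin-binding chain, was at 1.18 ± 0.473 CPM in Tfh and 11.5 ± 3.40 CPM in Th1. Itga7 was 9.62-fold lower (-3.27 ± 0.34). Itgb1, the beta chain that both of these pair with, was at 104 ± 12.2 CPM in Tfh and 186 ± 37.2 CPM in Th1, the smallest difference of the genes named by the rule (1.78-fold lower, -0.83 ± 0.15).

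Among lectin-like receptors and galectins, 18 genes were tested, of which 5 were higher, 7 lower and 6 not called (66.7% called, median -0.10). Klrb1f, one of the NKR-P1 receptor genes (gene ID 232408; chromosome 6, 129045837 to 129059724), was at 13.9, 53.7, 35.9, 26 and 29.4 CPM in Tfh and 0, 1.64, 0.212, 0 and 0.426 CPM in Th1. Klrb1f was 70.2-fold higher (6.13 ± 0.59; 7.34 without Th1 replicate 2). Clec2d, which encodes a ligand of an NKR-P1 receptor, was at 141 ± 23 CPM in Tfh and 43.1 ± 12.7 CPM in Th1. Clec2d was 3.28-fold higher (1.71 ± 0.19). Klrk1, the gene of the activating receptor NKG2D, was at 2.51, 0.424, 0, 0 and 0.0988 CPM in Tfh and 46.2, 26.1, 17.8, 17 and 21.4 CPM in Th1. Klrk1 was 57.4-fold lower (-5.84 ± 0.80; -7.80 without Tfh replicate 1). NKG2D is also carried by CD8 T cells and NK cells. Cd8a moved in the same direction, from 0 counts in Tfh to 1.12 to 10.4 CPM in Th1, and the 2 CD8 markers summed to 5.21 to 11.3 CPM in Tfh and 7.28 to 26.1 CPM in Th1 libraries, while of the NK cell markers Eomes was lower and Klrd1 higher in Tfh, as given above. The part of either cell type in the Klrk1 difference was not tested. Lgals3, which encodes the carbohydrate-binding galectin-3, was at 8.83 ± 2.81 CPM in Tfh and 67.7 ± 14.9 CPM in Th1. Lgals3 was 7.72-fold lower (-2.95 ± 0.23).

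Semaphorins, plexins, ephrins, netrin receptors and cadherins, known for guiding growing axons and migrating cells, had 46 genes tested, 19 higher, 17 lower and 10 not called (78.3% called, median 0.37). The naming rule takes members from both directions, so the semaphorins named do not compare secreted with membrane-bound ones as classes. Sema3b, which encodes a secreted semaphorin (gene ID 20347; chromosome 9, 107597674 to 107609241), was the lowest gene of all outside the lineage list, at 72.5, 73.8, 91.3, 88.3 and 76.4 CPM in Th1 and 0 in each of the 5 Tfh libraries. Sema3b was at least 1237-fold lower. Sema3f, its secreted relative (gene ID 20350; chromosome 9, 107681499 to 107710475), lies near it on the same chromosome, was at 0.341 ± 0.335 CPM in Tfh and 26.5 ± 10.1 CPM in Th1. Sema3f was 69-fold lower (-6.11 ± 0.57; -6.80 without Tfh replicate 4). Sema6d, a membrane-bound semaphorin (gene ID 214968; chromosome 2, 124089943 to 124667789), was at 83.7, 114, 122, 122 and 147 CPM in Tfh and 7.15, 4.64, 7.80, 7.29 and 9.54 CPM in Th1. Sema6d was 16.1-fold higher (4.01 ± 0.19). Plxnb1, a plexin that receives semaphorin signals, was at 11.6 ± 3.38 CPM in Tfh and 1.73 ± 0.863 CPM in Th1. Plxnb1 was 6.77-fold higher (2.76 ± 0.37).

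Tetraspanins, Ms4a and Tmem176 proteins, which cross the membrane several times, had 19 genes tested, 9 higher, 6 lower and 4 not called (78.9% called, median 0.51). The neighbouring genes Tmem176b (gene ID 65963; chromosome 6, 48833811 to 48845948) and Tmem176a (gene ID 66058; chromosome 6, 48841483 to 48845364) overlap each other, so their reads may be mixed. Tmem176b was at 63.6, 62.1, 86.3, 78.2 and 72.7 CPM in Tfh and 0.561, 1.64, 3.01, 1.48 and 1.36 CPM in Th1. Tmem176b was 41.2-fold higher (5.36 ± 0.29). Tmem176a was at 10.2, 50.9, 45.8, 57.7 and 46.5 CPM in Tfh and 1.12, 0.870, 1.23, 0.738 and 0.0852 CPM in Th1. Tmem176a was 50.4-fold higher (5.66 ± 0.46), with Tfh replicate 1 below the others. Ms4a4b, a T cell member of the Ms4a group, was at 8.91 ± 4.97 CPM in Tfh and 28.9 ± 12 CPM in Th1 (3.20-fold lower, -1.68 ± 0.47), and Tspan3 at 91.2 ± 16.5 CPM in Tfh and 191 ± 19.2 CPM in Th1 (2.09-fold lower, -1.07 ± 0.13).

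**Figure D2:**
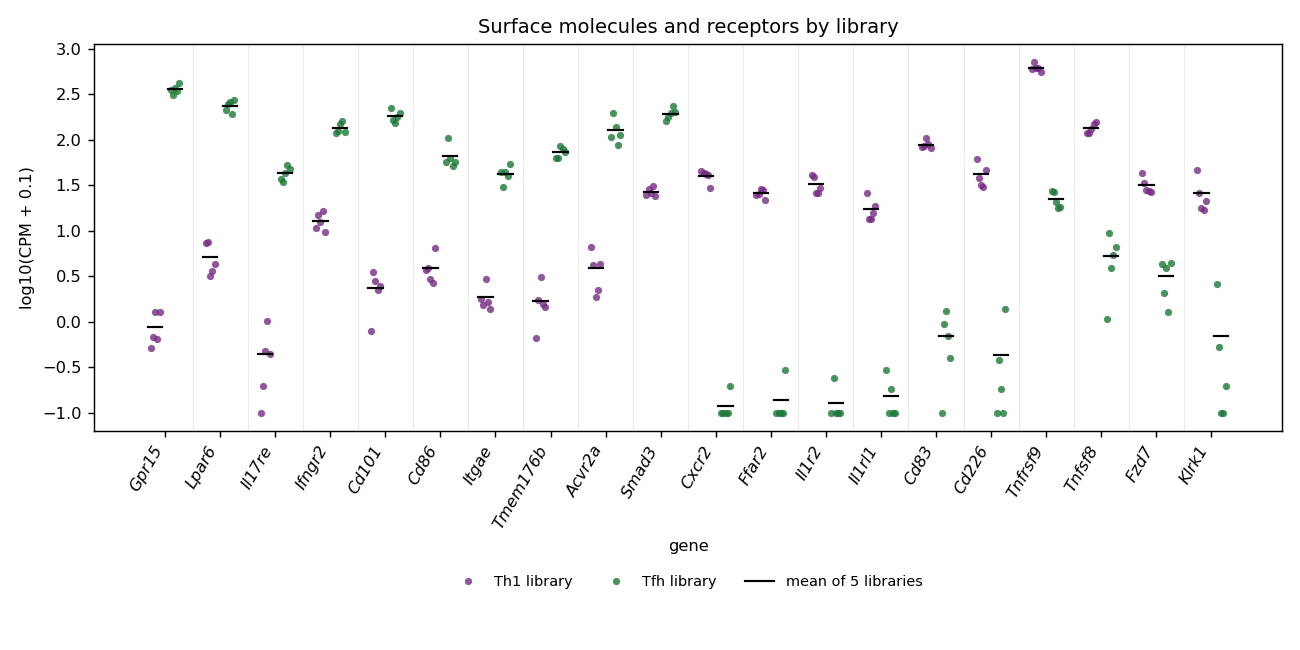
Levels (log10 of CPM + 0.1, vertical) of 20 named surface molecules and receptors in each of the 5 Th1 (purple) and 5 Tfh (green) libraries, with black bars at the log10 of the mean CPM + 0.1. The first 10 genes are higher in Tfh and the last 10 lower, and points at -1 are libraries without a count.

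Receptors that read signals from other cells or tissues differed as widely. Among the 80 G protein-coupled receptor genes tested, 25 were higher, 26 lower and 29 not called (63.7% called, median -0.04). Gpr15, which encodes a homing receptor that guides T cells to the large intestine (gene ID 71223; chromosome 16, 58716643 to 58718872) and whose promoter is printed above, was at 352, 309, 372, 339 and 416 CPM in Tfh and 0.420, 0.580, 1.19, 0.553 and 1.19 CPM in Th1. Every Tfh library was far above every Th1 library, and Gpr15 was 411-fold higher (8.68 ± 0.22), with the lowest adjusted p of the named genes (edgeR adjusted p = 4.99e-15). Lpar6, a receptor gene for lysophosphatidic acid (gene ID 67168; chromosome 14, 73237891 to 73240358), was at 213, 248, 258, 192 and 270.5 CPM in Tfh and 7.29, 7.35, 3.09, 3.51 and 4.26 CPM in Th1. Lpar6 was 47.6-fold higher (5.57 ± 0.26). Its span lies within that of Rb1, so some of its reads may belong there. Cxcr2, which encodes a receptor for neutrophil-attracting chemokines (gene ID 12765; chromosome 1, 74153994 to 74161246), was at 45, 43.4, 42.1, 40.9 and 29.2 CPM in Th1 and 0, 0, 0, 0 and 0.0988 CPM in Tfh. The single Tfh count was in replicate 5, and the ratio was 1789 (exact 95% interval 321 to 70700.0). The neighbouring Cxcr1, named after its values were seen, was at 1.57 ± 1.30 CPM in Tfh and 81.1 ± 11.8 CPM in Th1 (log2 fold change -5.56, edgeR adjusted p = 1.42e-08), and reads of this similar pair may be hard to assign. Ffar2, a receptor gene for short-chain fatty acids (gene ID 233079; chromosome 7, 30818031 to 30823775), was at 24.7, 25.5, 28.4, 28.1 and 21.5 CPM in Th1 and had 2 counts in Tfh, both in replicate 5, a ratio of 585 (exact 95% interval 162 to 4833).

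Cytokine receptor chains had 38 genes tested, 13 higher, 14 lower and 11 not called (71.1% called, median -0.13). Il17re, which encodes a chain of the receptor for IL-17C (gene ID 57890; chromosome 6, 113458699 to 113470758), was at 36.9, 34.6, 42.6, 52.5 and 47.2 CPM in Tfh and 0, 0.0967, 0.382, 0.923 and 0.341 CPM in Th1. Il17re was 111-fold higher (6.80 ± 0.38). Ifngr2, the signalling chain of the interferon gamma receptor (gene ID 15980; chromosome 16, 91547059 to 91564007), was at 117, 125, 149, 162 and 122 CPM in Tfh and 10.7, 14.7, 12.2, 16.5 and 9.54 CPM in Th1. The cells sorted for interferon gamma thus had the lower level of this chain, and Ifngr2 was 10.6-fold higher (3.41 ± 0.17). Il1r2, the decoy receptor for IL-1 (gene ID 16178; chromosome 1, 40084692 to 40125230), was at 41.2, 39.4, 25.9, 25.8 and 29.6 CPM in Th1 with 1 count in Tfh, in replicate 2, a ratio of 1361 (exact 95% interval 244 to 53770.0). Il1rl1, which encodes the IL-33 receptor ST2 (gene ID 17082; chromosome 1, 40404864 to 40465418), was at 26.1, 13.4, 13.4, 15.6 and 18.6 CPM in Th1 with 2 counts in Tfh, in replicates 1 and 3, a ratio of 361 (exact 95% interval 99.6 to 2982). Both lie in a row of IL-1 receptor family genes on chromosome 1, whose other members were looked at after the values were seen. Going along it, the log2 fold change was -9.88 for Il1r2, 6.98 for Il1r1, -2.05 for Il1rl2, -8.26 for Il1rl1, -3.83 for Il18r1 and -1.72 for Il18rap. Il1r1, the signalling receptor for IL-1, was thus the member of the row that was higher in Tfh, at 228 ± 43.9 CPM against 1.74 ± 0.446 CPM, while its neighbour, the decoy Il1r2, was at 0.0283 ± 0.0632 against 32.4 ± 7.41 CPM.

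TNF ligands and receptors, which carry co-stimulatory and death signals, had the highest share called of the 27 families. Of 33 genes tested, 14 were higher and 17 lower, and only Tnfsf14 and Tnfrsf22 did not pass (93.9% called, median -0.67). Tnfrsf9, the gene of the co-stimulatory receptor 4-1BB (gene ID 21942; chromosome 4, 150920155 to 150946104), was at 27.1, 26.8, 20.8, 17.6 and 18.2 CPM in Tfh and 593, 722, 606, 616 and 552 CPM in Th1. It was 28.1-fold lower (-4.81 ± 0.17; edgeR adjusted p = 6.97e-14) and had reads in all 10 libraries. Tnfsf8, which encodes the ligand of CD30 (gene ID 21949; chromosome 4, 63831202 to 63861508), was at 0.967, 9.46, 3.84, 5.38 and 6.62 CPM in Tfh and 119, 119, 130.5, 147 and 156 CPM in Th1. Tnfsf8 was 25.2-fold lower (-4.65 ± 0.34). The receptors Tnfrsf26 and Tnfrsf23, which lie side by side with Tnfrsf22 on chromosome 7, went the other way. Tnfrsf26 was at 124 ± 12 CPM in Tfh and 26.9 ± 2.27 CPM in Th1 (4.60-fold higher, 2.20 ± 0.12), and Tnfrsf23, a decoy receptor for TRAIL, at 5.41, 19.2, 18.6, 19.5 and 20.4 CPM in Tfh and 2.24, 5.03, 5.04, 3.88 and 2.90 CPM in Th1 (4.31-fold higher, 2.11 ± 0.31). Tnfrsf22 between them was at 12.7 ± 4.09 CPM in Tfh and 13.3 ± 1.57 CPM in Th1 and did not pass (log2 fold change -0.07, edgeR adjusted p = 0.808). The sequences of this group are alike, and how reads matching several genes were counted is not given in the sources used here.

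In the TGF-beta superfamily, 21 of 38 genes of ligands, receptors and Smads were higher, 8 lower and 9 not called (76.3% called), and the median log2 fold change was 0.71. Acvr2a, which encodes a type II receptor for activins (gene ID 11480; chromosome 2, 48814109 to 48903264), was at 107, 196, 137, 86.5 and 113 CPM in Tfh and 6.59, 4.16, 1.78, 2.12 and 4.26 CPM in Th1. It was 35.3-fold higher (5.14 ± 0.36), with the caution that its span overlaps that of Orc4. Smad3, the gene of a factor that carries TGF-beta and activin signals to the nucleus (gene ID 17127; chromosome 9, 63646766 to 63757994), was at 162, 178, 195, 233 and 200.4 CPM in Tfh and 24.5, 28.9, 25.7, 30.6 and 24.2 CPM in Th1, tightly grouped in both conditions, and was 7.23-fold higher (2.85 ± 0.14). Tgfbr3, the co-receptor betaglycan that presents TGF-beta (gene ID 21814; chromosome 5, 107106567 to 107289629), was at 27.8, 38.3, 50.1, 48.1 and 41.1 CPM in Tfh and 104, 119, 139, 138 and 119 CPM in Th1. Tgfbr3 was 3.01-fold lower (-1.59 ± 0.16). It was the member of the family that met the naming conditions in the lower direction.

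Receptors and ligands for growth factors, Notch and Wnt numbered 26, with 8 higher, 10 lower and 8 not called (69.2% called, median -0.20). Igf1r, the receptor for insulin-like growth factor, was at 158, 171, 176, 172 and 194 CPM in Tfh and 46.5, 34.4, 35.1, 42.4 and 45 CPM in Th1. Igf1r was 4.29-fold higher (2.10 ± 0.12). Ddr1, a collagen-binding receptor tyrosine kinase, was at 77.3 ± 24.2 CPM in Tfh and 11.3 ± 5.36 CPM in Th1. Ddr1 was 6.73-fold higher (2.75 ± 0.31). Wnt10b, a Wnt ligand, was at 0.136 ± 0.190 CPM in Tfh and 10.7 ± 3.42 CPM in Th1. Wnt10b was 72.8-fold lower (-6.19 ± 0.79; -7.26 without Tfh replicate 5). Fzd7, a Frizzled receptor for Wnt proteins, was at 4.25, 1.98, 3.84, 1.19 and 4.35 CPM in Tfh and 43.5, 33.4, 27.9, 27.6 and 26.7 CPM in Th1. Fzd7 was 10.2-fold lower (-3.35 ± 0.32). A Wnt ligand and a Wnt receptor were thus both lower in Tfh.

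**Figure D3:**
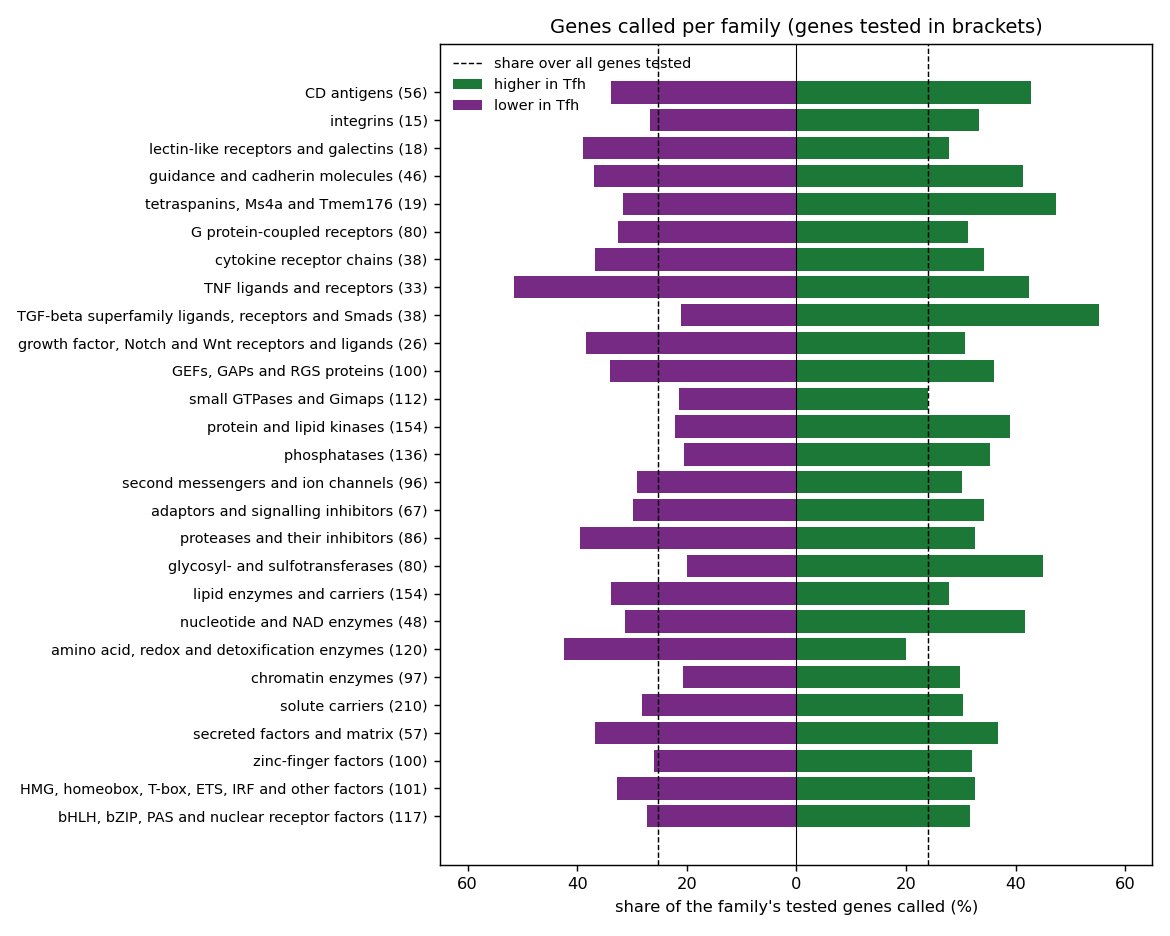
Share of each family's tested genes called higher (green, to the right) or lower (purple, to the left) in Tfh, in percent, with dashed lines at the shares over all genes tested (24.1% and 25.2%). TNF ligands and receptors were called in 93.9% of cases and small GTPases and Gimaps in 45.5%, the largest and smallest shares of the 27 families.

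Inside the cell, exchange factors and activating proteins of G proteins (GEFs, GAPs and RGS proteins) had 100 genes tested, 36 higher, 34 lower and 30 not called (70% called, median -0.01). Rgs10, which encodes a protein that speeds the turning off of heterotrimeric G proteins (gene ID 67865; chromosome 7, 128373621 to 128419506), was at 1259, 1370.0, 1608, 1529 and 1527 CPM in Tfh and 89.4, 101, 113, 96.9 and 69.7 CPM in Th1. It was the gene with the highest Tfh mean among those named by the rule and was 15.5-fold higher (3.96 ± 0.15; edgeR adjusted p = 2.2e-13). Rasgrp3, an exchange factor that passes diacylglycerol signals to Ras (gene ID 240168; chromosome 17, 75435870 to 75529054), varied in Tfh, at 37.5, 4.66, 19.7, 8.56 and 22.4 CPM, but had no count in Th1 and was at least 371-fold higher. Dock10, a guanine nucleotide exchange factor (gene ID 210293; chromosome 1, 80501068 to 80758765), was at 11.4, 31.2, 19.1, 29.8 and 37.4 CPM in Tfh and 401, 298, 270.3, 300.2 and 374 CPM in Th1. Dock10 was 12.7-fold lower (-3.66 ± 0.25). Arhgef10l, another exchange factor, was at 10.6 ± 2.71 CPM in Th1 and had 1 count in Tfh, in replicate 4, a ratio of 493 (exact 95% interval 88.2 to 19510.0).

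Small GTPases and Gimaps, which direct vesicles, the cytoskeleton and lymphocyte survival, were called in a share near that of all genes. Of 112 tested, 27 were higher, 24 lower and 61 not called (45.5% called, median 0.05). Rab32, a GTPase of lysosome-related vesicles, was at 9.28, 24.9, 16.6, 19.9 and 21.3 CPM in Tfh and 3.50, 0.967, 0.975, 0.738 and 0.766 CPM in Th1. Rab32 was 14.2-fold higher (3.82 ± 0.39). Rab43, another Rab GTPase, was at 65.7 ± 10.7 CPM in Tfh and 11.6 ± 1.26 CPM in Th1 (5.62-fold higher, 2.49 ± 0.19). Rab34, known for its part in cilia and lysosome positioning, was at 0, 0.141, 0.490, 0 and 0.0988 CPM in Tfh and 22.1, 40.9, 66.7, 55.3 and 25.4 CPM in Th1. Rab34 was 226-fold lower (-7.82 ± 0.52; -9.18 without Tfh replicate 3). Gimap7, a GTPase of lymphocytes, was at 5.22, 14.7, 8.58, 7.56 and 8.10 CPM in Tfh and 178, 157, 146, 136 and 129 CPM in Th1. Gimap7 was 16.9-fold lower (-4.08 ± 0.30).

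Of 154 protein and lipid kinase genes tested, 60 were higher, 34 lower and 60 not called (61% called, median 0.14). Txk, which encodes a Tec-family tyrosine kinase of T cells (gene ID 22165; chromosome 5, 72695978 to 72752992), was at 53.9, 74.4, 76.1, 70.9 and 62.3 CPM in Tfh and 1.54, 2.71, 0.890, 0.553 and 0.256 CPM in Th1. Txk was 59.1-fold higher (5.89 ± 0.36). Pik3r3, a regulatory subunit of phosphoinositide 3-kinase, was at 16.2, 14.4, 19.9, 12.2 and 21 CPM in Tfh and 0, 0.193, 0.127, 0.553 and 0.341 CPM in Th1. Pik3r3 was 66-fold higher (6.04 ± 0.46). Dgkh, a kinase that removes diacylglycerol, was at 4.39 ± 2.10 CPM in Tfh and 51.2 ± 9.82 CPM in Th1. Dgkh was 11.7-fold lower (-3.54 ± 0.31). Ripk2, the kinase of NOD receptor signalling, was at 14.7, 28.7, 27.5, 29 and 26.4 CPM in Tfh and 223, 180.2, 181, 138 and 184 CPM in Th1. Ripk2 was 7.14-fold lower (-2.83 ± 0.18).

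Phosphatases and their subunits had 136 genes tested, 48 higher, 28 lower and 60 not called (55.9% called, median 0.20). A pair of genes whose products bring protein phosphatase 1 to glycogen moved apart. Ppp1r3d was at 21.3, 19.4, 24.7, 28.1 and 29.9 CPM in Tfh and had 3 counts in Th1, a ratio of 539 (exact 95% interval 184 to 2616), though its span overlaps that of Fam217b. Its relative Ppp1r3b was at 11.4, 14.4, 9.64, 13.4 and 10.1 CPM in Tfh and 78.3, 121, 89.2, 93.5 and 79 CPM in Th1. Ppp1r3b was 7.83-fold lower (-2.97 ± 0.18). Ptprf, a receptor tyrosine phosphatase, was at 22.2 ± 8.17 CPM in Tfh and 1.39 ± 1.04 CPM in Th1. Ptprf was 16.7-fold higher (4.07 ± 0.42). Dusp5, which inactivates the kinase ERK in the nucleus, was at 1.93, 6.07, 7.68, 10.4 and 4.84 CPM in Tfh and 48.5, 50.6, 106, 96.6 and 62.1 CPM in Th1. Dusp5 was 11.4-fold lower (-3.52 ± 0.35).

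Enzymes of second messengers and ion channels had 96 genes tested, 29 higher, 28 lower and 39 not called (59.4% called, median 0.02). Kcnh5, a voltage-gated potassium channel gene (gene ID 238271; chromosome 12, 74897217 to 75177332), was at 18.6, 15.5, 15.4, 17.3 and 28.8 CPM in Tfh and had 1 count in Th1, in replicate 3, a ratio of 1224 (exact 95% interval 219 to 48410.0). Trpm6, a magnesium channel, was at 17.6 ± 2.09 CPM in Tfh and 0.200 ± 0.152 CPM in Th1. Trpm6 was 77.3-fold higher (6.27 ± 0.35). P2rx3, a channel opened by extracellular ATP, was at 0.870 ± 0.634 CPM in Tfh and 19 ± 2.80 CPM in Th1. P2rx3 was 23.5-fold lower (-4.56 ± 0.53). Ano7, of the anoctamin family, was at 13.6, 16.1, 23.6, 21.3 and 14.7 CPM in Th1 and 0, 0, 0, 0 and 1.78 CPM in Tfh, so that all its Tfh counts came from replicate 5, and was 44.2-fold lower (-5.47 ± 0.89; -10.60 without Tfh replicate 5).

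Adaptors and inhibitors of signalling had 67 genes tested, 23 higher, 20 lower and 24 not called (64.2% called, median 0.10). Peli2, a ubiquitin ligase of Toll-like and IL-1 receptor signalling (gene ID 93834; chromosome 14, 48120777 to 48281578), was at 167, 141, 147, 149 and 172 CPM in Tfh and 7.71, 10.2, 6.27, 8.58 and 9.11 CPM in Th1. Peli2 was 18.6-fold higher (4.22 ± 0.18). Lax1, a membrane adaptor that restrains lymphocyte receptor signalling, was at 107 ± 26.7 CPM in Tfh and 18.5 ± 4.36 CPM in Th1. Lax1 was 5.76-fold higher (2.52 ± 0.20). Themis, an adaptor of T cell receptor signalling needed in the thymus (gene ID 210757; chromosome 10, 28668360 to 28883820), was at 29.6, 52, 41.9, 32.9 and 46.2 CPM in Tfh and 875, 567, 372, 408 and 583 CPM in Th1. Its Th1 values spread widely, all stayed far above the Tfh values, and Themis was 13.8-fold lower (-3.79 ± 0.26). Tnip3, which encodes a binding partner of the NF-kappaB inhibitor A20, was at 0.193, 2.40, 0, 0.0995 and 0.790 CPM in Tfh and 108, 78.1, 54.5, 48.6 and 70.2 CPM in Th1. Tnip3 was 111-fold lower (-6.80 ± 0.58; -8.03 without Tfh replicate 2).

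**Figure D4:**
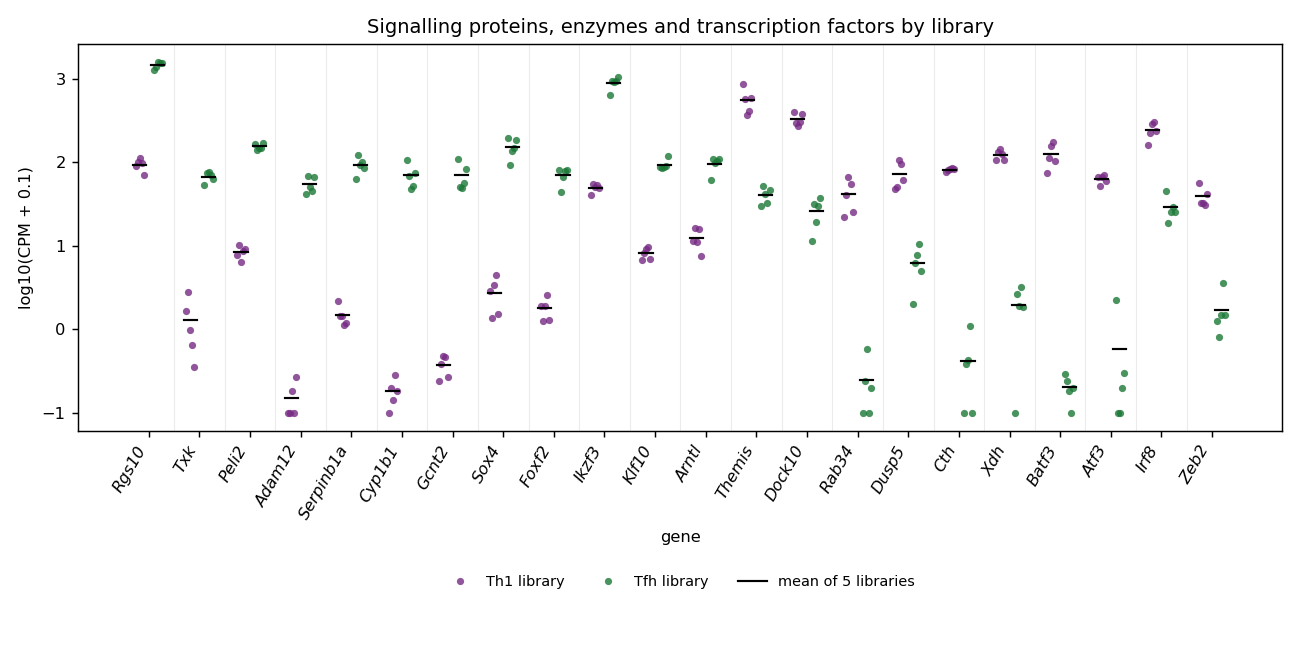
Levels (log10 of CPM + 0.1, vertical) of 22 named signalling proteins, enzymes and transcription factors in each of the 5 Th1 (purple) and 5 Tfh (green) libraries, with black bars at the log10 of the mean CPM + 0.1. The first 12 genes are higher in Tfh and the last 10 lower, and points at -1 are libraries without a count.

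Of 86 genes of proteases and their inhibitors tested, 28 were higher, 34 lower and 24 not called (72.1% called, median -0.07). Adam12, a membrane-bound metalloprotease gene (gene ID 11489; chromosome 7, 133883199 to 134225097), was at 41.2, 68.7, 50.7, 45.4 and 66.6 CPM in Tfh and 0, 0, 0.0848, 0 and 0.170 CPM in Th1. Adam12 was 738-fold higher (9.53 ± 0.36). Serpinb1a, an inhibitor of neutrophil serine proteases (gene ID 66222; chromosome 13, 32842092 to 32853206), was at 62.2, 124, 92, 102 and 84.3 CPM in Tfh and 2.10, 1.35, 1.36, 1.01 and 1.11 CPM in Th1. Serpinb1a was 68.2-fold higher (6.09 ± 0.25). The matrix protease gene Mmp7 was at 19.1, 10.3, 9.83, 7.66 and 10.4 CPM in Th1 and 0 in each of the 5 Tfh libraries. Mmp7 was at least 159-fold lower. Timp3, an inhibitor of such proteases, was at 10.9 ± 2.86 CPM in Th1 with no count in Tfh, and was at least 148-fold lower. Timp3 overlaps Syn3, which had 591 counts against its 639, so its reads are uncertain.

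Glycosyl- and sulfotransferases, which build the sugars that lectins and selectins bind, had 80 genes tested, 36 higher, 16 lower and 28 not called (65% called, median 0.51). Gcnt2, the enzyme that branches poly-N-acetyllactosamine chains (gene ID 14538; chromosome 13, 40859768 to 40960892), was at 111, 50.1, 48.9, 56.8 and 84 CPM in Tfh and 0.140, 0.290, 0.382, 0.369 and 0.170 CPM in Th1. Gcnt2 was 229-fold higher (7.84 ± 0.33). St6galnac3, a sialyltransferase, was at 15.5, 29.4, 17.2, 15.7 and 17.2 CPM in Tfh and 0.981, 0.193, 0.721, 0.369 and 0.681 CPM in Th1. St6galnac3 was 31.8-fold higher (4.99 ± 0.42). St8sia4, which makes polysialic acid, was at 3.09, 25.7, 18.5, 7.96 and 13.7 CPM in Tfh and 204, 103, 60.8, 78.7 and 138 CPM in Th1, with wide spread in both, and was 8.37-fold lower (-3.06 ± 0.44). Fut4, a fucosyltransferase, was at 1.16 ± 0.958 CPM in Tfh and 17.4 ± 4.22 CPM in Th1. Fut4 was 13.8-fold lower (-3.78 ± 0.44; -4.37 without Tfh replicate 3).

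Lipid enzymes and carriers had 154 genes tested, 43 higher, 52 lower and 59 not called (61.7% called, median -0.05). Cyp1b1, a cytochrome P450 enzyme and a classical target of the aryl hydrocarbon receptor (gene ID 13078; chromosome 17, 79706940 to 79715061), was at 106, 68.2, 47.7, 51.4 and 73.7 CPM in Tfh and 0, 0.0967, 0.0424, 0.184 and 0.0852 CPM in Th1. Cyp1b1 was 763-fold higher (9.57 ± 0.39). No xenobiotic response element, the motif of that receptor, was found in the 300 bases printed above, which says nothing of sites elsewhere. Apol9a, an apolipoprotein L gene with a close copy that its reads may be shared with, was at 15.8, 4.38, 15.7, 7.27 and 8.60 CPM in Tfh with no count in Th1, and was at least 221-fold higher. Acsl6, which activates long fatty acids, was at 34.5, 22.2, 20.8, 26.4 and 23.6 CPM in Th1 and 0.773, 0, 0, 0 and 0 CPM in Tfh, where all 4 counts came from replicate 1, the library that stood apart, and was 241-fold lower (-7.91 ± 0.71; -11.14 without Tfh replicate 1). Soat2, a sterol acyltransferase, was at 0.484 ± 0.430 CPM in Tfh and 15.3 ± 3.13 CPM in Th1. Soat2 was 36.2-fold lower (-5.18 ± 0.58).

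Nucleotide and NAD enzymes had 48 genes tested, 20 higher, 15 lower and 13 not called (72.9% called, median -0.05). Enpp2, the gene of autotaxin, the enzyme that makes lysophosphatidic acid (gene ID 18606; chromosome 15, 54838901 to 54952789), was at 0, 0, 0, 0.299 and 0.198 CPM in Tfh and 57.8, 40.8, 27.2, 24.8 and 36.1 CPM in Th1. Enpp2 was 302-fold lower (-8.24 ± 0.52; -9.07 without Tfh replicate 4). It was thus high where Lpar6, a receptor gene for that lipid, was low, though some reads of Lpar6 may belong to Rb1. Xdh, the xanthine dehydrogenase that ends purine breakdown (gene ID 22436; chromosome 17, 73883895 to 73950397), was at 0, 2.54, 1.80, 3.08 and 1.78 CPM in Tfh and 106, 132, 143, 124 and 106 CPM in Th1. Xdh was 62.6-fold lower (-5.97 ± 0.35). Art2a, of the ADP-ribosyltransferases of the T cell surface, is annotated as a transcribed pseudogene and was at 22.2, 24.1, 17, 14 and 29.1 CPM in Tfh and 0, 0.290, 0.297, 0.277 and 1.28 CPM in Th1 (46.7-fold higher, 5.54 ± 0.44; 6.36 without Th1 replicate 5), and it has a close copy. Pnpla7, which the family's symbol pattern also caught, encodes a lysophospholipase, and was at 32.6 ± 8.77 CPM in Tfh and 7.75 ± 1.37 CPM in Th1 (4.19-fold higher, 2.07 ± 0.20).

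Enzymes of amino acid, redox and detoxification reactions were lower more often than higher, with 51 lower, 24 higher and 45 not called of 120 tested (62.5% called), and a median log2 fold change of -0.47. Cth, which encodes the cystathionine lyase that makes cysteine (gene ID 107869; chromosome 3, 157894248 to 157925081), was at 0, 0.282, 0.327, 0.995 and 0 CPM in Tfh and 77.2, 80.5, 82.1, 85.9 and 84 CPM in Th1. The Th1 libraries differed little among themselves, and Cth was 224-fold lower (-7.81 ± 0.61; -8.80 without Tfh replicate 4). Aldh1l2, a folate enzyme of mitochondria, was at 19.1 ± 4.50 CPM in Th1 with 2 counts in Tfh, both in replicate 2, a ratio of 403 (exact 95% interval 111 to 3330.0). Ephx1, an epoxide hydrolase, was at 112, 177, 146, 160.2 and 117 CPM in Tfh and 24.9, 33.9, 46.1, 36.6 and 13.4 CPM in Th1. Ephx1 was 4.58-fold higher (2.20 ± 0.26). Txnip, which restrains glucose uptake and binds thioredoxin (gene ID 56338; chromosome 3, 96557957 to 96561857), was at 271, 412, 344, 352 and 298 CPM in Tfh and 72.6, 133, 94.8, 86.6 and 62.2 CPM in Th1. Txnip was 3.73-fold higher (1.90 ± 0.18).

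Chromatin enzymes were called in a share near that of all genes, with 29 higher, 20 lower and 48 not called of 97 (50.5% called, median -0.03), and their differences lay between -2.37 and 2.21 on the log2 scale, the narrowest range of the 27 families. Kdm7a, a histone demethylase, was at 118 ± 33.6 CPM in Tfh and 31.9 ± 10.2 CPM in Th1 (3.70-fold higher, 1.89 ± 0.26). Prmt6, an arginine methyltransferase, was at 41.8 ± 2.81 CPM in Tfh and 17.4 ± 4.08 CPM in Th1 (2.42-fold higher, 1.28 ± 0.16). Tet1, which oxidises methylated cytosine, was at 2.35 ± 1.93 CPM in Tfh and 11.5 ± 3.45 CPM in Th1 (4.70-fold lower, -2.23 ± 0.52). Smyd3, a lysine methyltransferase, was at 10.3 ± 4.75 CPM in Tfh and 35.7 ± 6.55 CPM in Th1 (3.42-fold lower, -1.78 ± 0.27).

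Solute carriers formed the largest family, with 210 genes tested, 64 higher, 59 lower and 87 not called (58.6% called, median 0.13). Slc16a10, a transporter of aromatic amino acids (gene ID 72472; chromosome 10, 40033532 to 40142270), was at 312, 314, 367.7, 374 and 439 CPM in Tfh and 51.4, 43.1, 49.1, 48.5 and 49.4 CPM in Th1. Slc16a10 was 7.49-fold higher (2.90 ± 0.14). Slc43a2, a transporter of large neutral amino acids, was at 155, 118, 122.9, 153 and 119 CPM in Tfh and 8.83, 10.2, 21.1, 16 and 14.2 CPM in Th1. Slc43a2 was 9.37-fold higher (3.23 ± 0.22). Slc38a3, a glutamine transporter, was at 10.9 ± 4.49 CPM in Th1 with no count in Tfh, and was at least 184-fold lower. Slc13a3, a carrier of succinate and other dicarboxylates, was at 14 ± 3.91 CPM in Th1 with 1 count in Tfh, in replicate 4, a ratio of 681 (exact 95% interval 122 to 26940.0). The rule names members of both directions, so the sides of the amino acid carriers named are no finding about such carriers.

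Secreted factors and matrix proteins had 57 genes tested, 21 higher, 21 lower and 15 not called (73.7% called, median -0.58), a count that includes Ifng and other lineage cytokines. Il3, the cytokine that feeds myeloid and mast cells (gene ID 16187; chromosome 11, 54265085 to 54267279), was at 131, 119.5, 106, 87.2 and 124 CPM in Th1 and 0, 0, 0, 0 and 0.0988 CPM in Tfh, where replicate 5 held its only count, and its ratio was 4960.0 (exact 95% interval 890.0 to 195900.0). Penk, which encodes the precursor of the opioid enkephalins, was at 31.1, 37.8, 46.3, 43.5 and 42.2 CPM in Th1 and 0.193, 0, 2.78, 0.199 and 0 CPM in Tfh, where replicate 3 held most counts, and was 52.6-fold lower (-5.72 ± 0.74; -8.61 without Tfh replicate 3). Lamc3, a laminin chain, was at 24, 7.91, 16.4, 21.9 and 25.8 CPM in Tfh with 2 counts in Th1, a ratio of 614 (exact 95% interval 169.5 to 5080.0). Thbs1, the gene of the matrix protein thrombospondin that can activate latent TGF-beta, was at 35.4, 6.78, 20.6, 11.7 and 35.7 CPM in Tfh and 0, 0, 0, 0 and 0.511 CPM in Th1, where replicate 5 held all counts, and was 202-fold higher (7.66 ± 0.75; 10.86 without Th1 replicate 5).

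Of 100 zinc-finger factor genes tested, 32 were higher, 26 lower and 42 not called (58% called, median 0.20). Ikzf3, the gene of Aiolos, an Ikaros family factor of lymphocytes (gene ID 22780; chromosome 11, 98464610 to 98546031), was at 640.1, 936, 909, 945 and 1054 CPM in Tfh and 40.6, 55, 51, 53.4 and 48.6 CPM in Th1. Ikzf3 was 18-fold higher (4.17 ± 0.15; edgeR adjusted p = 8.58e-14). Klf10, a Kruppel-like factor known to be induced by TGF-beta (gene ID 21847; chromosome 15, 38291464 to 38300711), was at 87.4, 84.8, 86.8, 89.8 and 118 CPM in Tfh and 6.59, 8.12, 9.20, 9.69 and 6.90 CPM in Th1. Klf10 was 11.4-fold higher (3.52 ± 0.16). Zeb2, a repressor known to act with T-bet in effector T cells (gene ID 24136; chromosome 2, 44983512 to 45117442), was at 1.16, 0.706, 1.39, 3.48 and 1.38 CPM in Tfh and 56.6, 32.8, 32.4, 30.8 and 42.1 CPM in Th1. Zeb2 was 23-fold lower (-4.53 ± 0.39). Plagl1, an imprinted zinc-finger gene, was at 1.30 ± 1.08 CPM in Tfh and 21.2 ± 1.56 CPM in Th1. Plagl1 was 15.6-fold lower (-3.96 ± 0.45).

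HMG, homeobox, forkhead, T-box, ETS, Rel, IRF and STAT factors split evenly, with 33 higher, 33 lower and 35 not called of 101 (65.3% called, median 0.12). Sox4 and Sox5, both of the HMG-box Sox family, moved apart. Sox4, known to respond to TGF-beta in T cells (gene ID 20677; chromosome 13, 28948919 to 28953699), was at 197, 92.8, 137, 147 and 186 CPM in Tfh and 2.80, 1.26, 3.31, 4.43 and 1.45 CPM in Th1. Sox4 was 56.5-fold higher (5.82 ± 0.36). Sox5 was at 4.06, 0.706, 3.10, 1.99 and 2.47 CPM in Tfh and 39.95, 24.8, 17.8, 25.6 and 26 CPM in Th1. Sox5 was 10.9-fold lower (-3.45 ± 0.45). Foxf2, a forkhead factor better known from mesenchyme (gene ID 14238; chromosome 13, 31625816 to 31631406), was at 81.2, 44.6, 66.4, 79.5 and 81.7 CPM in Tfh and 1.82, 1.16, 1.78, 2.49 and 1.19 CPM in Th1. Foxf2 was 41.6-fold higher (5.38 ± 0.25). Irf8, an interferon regulatory factor (gene ID 15900; chromosome 8, 120736358 to 120756694), was at 45.4, 18.6, 25.2, 29.5 and 25.3 CPM in Tfh and 162, 227, 284, 307 and 237 CPM in Th1. Irf8 was 8.50-fold lower (-3.09 ± 0.23).

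In the bHLH, bZIP, PAS and nuclear receptor group, 117 genes were tested, 37 higher, 32 lower and 48 not called (59% called, median -0.01). Batf3, an AP-1 family factor known from dendritic cells and Th1 cells (gene ID 381319; chromosome 1, 191098414 to 191108943) whose promoter is printed above, was at 0.193, 0.141, 0.0817, 0 and 0.0988 CPM in Tfh and 75.4, 113, 156, 175 and 105 CPM in Th1. Its Tfh total was 4 counts over 4 libraries, and Batf3 was 1229-fold lower (-10.26 ± 0.46; edgeR adjusted p = 2e-12). Atf3, a stress-induced factor that lies near Batf3 on chromosome 1 (gene ID 11910; chromosome 1, 191170296 to 191183333), was at 2.13, 0, 0, 0.0995 and 0.198 CPM in Tfh and 65.7, 52, 66.3, 70.9 and 59.5 CPM in Th1. Replicate 1, the library that stood apart, held most of its Tfh counts, and Atf3 was 181-fold lower (-7.50 ± 0.57; -9.49 without Tfh replicate 1). Arntl, the clock factor BMAL1 (gene ID 11865; chromosome 7, 113178471 to 113314126), was at 61.9, 109, 96.8, 105 and 110.0 CPM in Tfh and 11.3, 16.1, 10.9, 15.9 and 7.41 CPM in Th1. Arntl was 7.85-fold higher (2.97 ± 0.21). Ahrr, the repressor and target of the aryl hydrocarbon receptor, was at 8.31, 19.5, 13.4, 12.8 and 15.6 CPM in Tfh and 0, 1.26, 1.36, 1.94 and 3.41 CPM in Th1. Ahrr was 8.48-fold higher (3.08 ± 0.47), in the same direction as Cyp1b1.

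The Th17 libraries give the named genes a further level, printed here for some of them. In the same fit, 2113 genes (16.8% of those tested) were called between Tfh and Th17 and 4642 (36.9%) between Th17 and Th1. These comparisons share libraries with that of Tfh and Th1, so values are given side by side. Gpr15 was at 239 ± 15.6 CPM in Th17, below the 358 ± 39.97 of Tfh (log2 fold change 0.58 ± 0.15, edgeR adjusted p = 0.011) and far above the 0.787 ± 0.373 of Th1. Gcnt2 was at 158 ± 28.7 CPM in Th17, above the 70.1 ± 26.7 of Tfh (-1.18 ± 0.21, edgeR adjusted p = 0.000707), and Gja5 at 39.8 ± 7.02 against 13.7 ± 2.86 (-1.55 ± 0.21, edgeR adjusted p = 0.000141). Sema3b, Il3 and Stra6 were nearly without reads in Th17 too, at 0.0348 ± 0.0779, 0.0929 ± 0.0901 and 0.466 ± 0.353 CPM, and none of the 3 was called between Tfh and Th17 (edgeR adjusted p = 0.294, 0.311 and 0.167).

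Some of the named genes set Tfh apart from Th17 as well as from Th1. Ntng1 was at 3.68 ± 1.63 CPM in Th17 against 16.3 ± 4.82 in Tfh (2.15 ± 0.36, edgeR adjusted p = 0.000924), Itgae at 8.35 ± 1.47 against 42.4 ± 8.38 (2.34 ± 0.23, edgeR adjusted p = 1.66e-06) and Sox4 at 37.9 ± 13 against 152 ± 41.7 (2.001 ± 0.30, edgeR adjusted p = 0.000122). Ephx1 was at 27.1 ± 6.59 CPM in Th17 and 31 ± 12.4 CPM in Th1, which were not called apart (edgeR adjusted p = 0.59), against 143 ± 27.6 in Tfh (2.40 ± 0.27, edgeR adjusted p = 7e-06). Itga7 did the reverse, at 12.3 ± 3.96 CPM in Th17 and 11.5 ± 3.40 CPM in Th1 (edgeR adjusted p = 0.835) against 1.18 ± 0.473 in Tfh (-3.36 ± 0.34, edgeR adjusted p = 2.99e-06). Tnfrsf9 took an intermediate level of 109 ± 14.8 CPM in Th17, below Th1 and above Tfh (-2.31 ± 0.15, edgeR adjusted p = 1.19e-08), and Enpp2 one of 4.05 ± 1.52 CPM (-5.03 ± 0.56, edgeR adjusted p = 6.88e-06). For these genes the position of Th17 between or beside the others thus differed from gene to gene. Over all genes named by the rule, most differed from Th1 in the same direction in Th17 as in Tfh. Those higher in Tfh were, except Ephx1, also called higher in Th17 than in Th1. Those lower in Tfh were, except Itga7 and Itgb1, also called lower in Th17. Cd101 was at 118 CPM in Th17 against 2.26 in Th1, and Cd83 at 0.975 against 88.4. Both comparisons use the same Th1 libraries, and the genes were chosen for their distance from Th1.

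**Figure D5:**
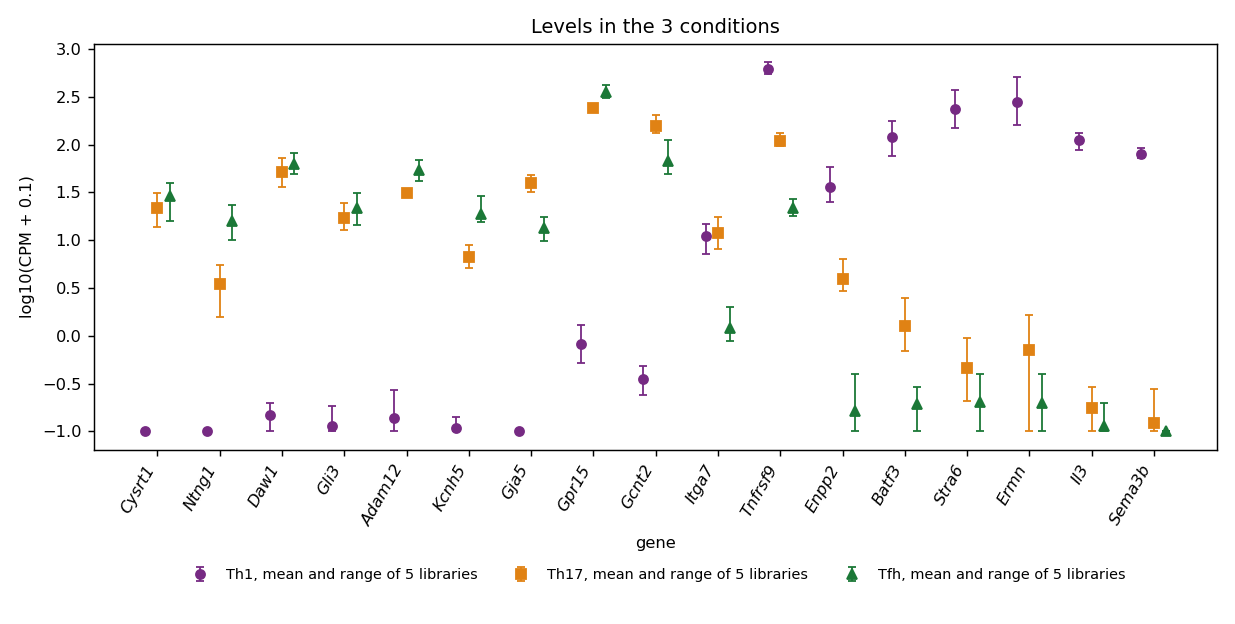
Levels (log10 of CPM + 0.1, vertical) of 17 named genes in Th1 (purple circles), Th17 (orange squares) and Tfh (green triangles), each mark the mean of the 5 libraries' log values with a bar from the lowest to the highest library. Th17 lies near Tfh for genes such as Cysrt1 and Il3, with Th1 for Itga7, and between both for Tnfrsf9.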

How the data were processed

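Libraries were sequenced and deposited as raw read counts per gene, 1 column for each of 15 libraries. Per the submitters' processing notes, STAR 2.7.2b, featureCounts 1.6.4 and the build mm10 were used by the authors, while the sources used here do not state the annotation, the strand setting or how multiply matching reads were treated. The 15 deposited files of single libraries are identical to its columns. Of 27179 gene IDs, 25275 matched a symbol in RefSeq's table for GRCm38.p6 (98.2% of counts), which also gave the coordinates. Columns were assigned to conditions by their names.

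Genes passing edgeR's default low-count filter over the 3 conditions were tested (12591; 5472 other genes with a count were removed). Counts were scaled by TMM and fitted to all 15 libraries by the robust quasi-likelihood method of edgeR 4.0.16 in R 4.3.3, with p-values adjusted over all genes tested and a threshold of 0.05. The procedure was also run on simulated data in which few genes were changed. That setting differs from these data, where 49.3% of the genes were called, so no conclusion is drawn from it. DESeq2 1.42.0 and limma 3.58.1 (voom) served as alternatives, with other scalings, filters, a fit to the 10 libraries, a replicate block and each library left out in turn. Replicates of a condition differed by more than sampling noise, with a chi-square per gene of at least 11.2.

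From each of 27 families the 2 genes with the largest difference in either direction were named, and the 10 largest among all genes, at a mean of at least 10 CPM, called, without overlap between the libraries and outside 63 usual lineage genes. The members and lists were chosen with earlier results of these data known. Promoters, motifs and neighbouring genes were chosen after the values were seen.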

Additional observations from a re-analysis of the deposited data

Results flagged for a closer look

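Of 206 groups of 5 libraries, 23 held 1 library whose gap to the nearest other library was over 0.71 of the group's range. For normally distributed values about 1 group in 20 would pass that limit by chance. Some of these groups hold few counts and need not follow that distribution, so the 23 cannot be set against that rate. Groups of 15 or fewer counts in all were not examined, a restriction chosen after the data were seen. Total counts were highest in Th1 replicate 3, at 25.2 M against 7.34 M to 11.5 M in the other Th1 libraries.

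Tfh replicate 1, the library that stood apart in the principal components, was low for Tnfrsf23 (5.41 CPM against 18.6 to 20.4 CPM in the other Tfh libraries), Tmem176a (10.2 CPM against 45.8 to 57.7 CPM), Ripk2 (14.7 CPM against 26.4 to 29.0 CPM) and Arntl (61.9 CPM against 96.8 to 110.0 CPM), and high for Klrk1 (2.51 CPM against at most 0.424 CPM). Tfh replicate 5 was high for Cd226 (1.28 CPM against at most 0.282 CPM), Ano7 (1.78 CPM against 0), Klf10 (118 CPM against 84.8 to 89.8 CPM) and Kcnh5 (28.8 CPM against 15.4 to 18.6 CPM). Tfh replicate 2 was high for Cd86 (105 CPM against 51.8 to 63.7 CPM) and St6galnac3 (29.4 CPM against 15.5 to 17.2 CPM), replicate 3 for Penk (2.78 CPM against at most 0.199 CPM) and replicate 4 for Zeb2 (3.48 CPM against 0.706 to 1.39 CPM).

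Among the Th1 libraries, replicate 1 was high for Mmp7 (19.1 CPM against 7.66 to 10.4 CPM), Prmt6 (24.4 CPM against 14.7 to 17.4 CPM) and Rab32 (3.50 CPM against 0.738 to 0.975 CPM). Replicate 2 was high for Smyd3 (47.1 CPM against 30.6 to 34.5 CPM), Ms4a4b (49.5 CPM against 19.4 to 28.0 CPM) and Klrb1f (1.64 CPM against at most 0.426 CPM), and replicate 3 for Itgae (2.88 CPM against 1.28 to 1.68 CPM). Replicate 5 was low for Cxcr2 (29.2 CPM against 40.9 to 44.99 CPM) and high for Art2a (1.28 CPM against at most 0.297 CPM). No named gene lost its call or its direction when any of these libraries was left out.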

How the results depend on the processing

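Counts of genes higher and lower in Tfh were 2859 and 3308 with DESeq2's median-of-ratios factors in edgeR, 3305 and 2931 with library size alone, 3050 and 3589 without a filter, 2539 and 2827 when at least 5 CPM in at least 5 libraries was required, 2596 and 3000 with only the 10 Tfh and Th1 libraries, 3088 and 3507 with DESeq2, and 3100 and 3308 with limma-voom. With 1 library left out they were 2688 to 3088 higher and 2958 to 3256 lower. All were within 1.5 times the reported 3037 and 3169. Same-numbered Tfh and Th1 libraries correlated in their deviations from the condition means at -0.011 to 0.44, and 2 of 5 Tfh libraries correlated best with their own number, so the numbers were not taken to pair the libraries. With a replicate block 3449 genes were higher and 3474 lower.

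The 118 genes named by rule and the 4 that check the labels kept their direction and call in all 2195 values computed under the 18 alternatives, of which Apol9a had 17, since it did not pass the strict filter. Values of other genes, such as Cxcr1, Il1r1 and Tnfrsf22, were not looked at under the alternatives. Yet for 43 of the genes named by rule or used to check the labels, the fold moved by over 1.5 times in at least 1 alternative. Under limma-voom more of these folds shrank than grew, and the most extreme genes were among those that shrank. The log2 fold change went from -12.75 to -10.43 for Sema3b, from -11.07 to -8.74 for Nos2, from 11.34 to 9.45 for Cysrt1 and from 10.62 to 8.40 for Rasgrp3. Folds that grew reached -8.44 for Cth, -8.47 for Atf3, -7.66 for Cd226 and -7.87 for Tnip3. Others that grew reached -6.97 for Klrk1, -7.31 for Penk, -7.24 for Ano7 and 6.99 for Klrb1f. The cause was not tested. Of 972 family counts, 7 moved by over 1.5 times: lectin-like receptors lower (11) and secreted factors lower (34) without a filter, guidance molecules higher (8), TGF-beta members lower (2) and growth factor members higher (3) with the strict filter, and guidance molecules (12) and growth factor members (5) higher with 10 libraries. Folds of genes with few counts in a condition are limited by depth.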
